A study of Mus musculus with 6 samples.

Results

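Collagen and laminin chains were taken as the genes whose symbol names a numbered collagen alpha chain or a numbered alpha, beta or gamma laminin chain. This rule, which uses no measured value, found 55 of the 22105 gene features in the table, 44 collagen chains and 11 laminin chains. Their transcripts were measured by mRNA sequencing in 4T1 cells, a carcinoma line from the mammary gland of a mouse. The 3 nanoparticle libraries came from cells exposed for 24 h to particles that the labels call CM-PEG-PLGA@DOX/R848, given at 2 µg/mL in doxorubicin (DOX) equivalents. DOX is an anthracycline that poisons topoisomerase II, and R848 (resiquimod) is an agonist of the receptors TLR7 and TLR8. The 3 PBS libraries came from the same line given phosphate-buffered saline and kept for the same 24 h. Free drugs, empty particles and other times or doses were not analysed here. The line was grown alone in culture, as far as the labels say, and nothing in them states that the samples of a group were separate cultures. A p-value here therefore speaks of the spread among these 6 libraries, part or all of which may be technical.

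Collagen chains wind into triple helices in the endoplasmic reticulum, where prolines and lysines are hydroxylated and chaperones keep the helix folded, and they are trimmed and crosslinked after secretion. Laminins are cross-shaped trimers of an alpha, a beta and a gamma chain that cells anchor through integrins and dystroglycan. Laminin polymers and the collagen IV network are the 2 scaffolds of the basement membrane, the thin sheet under epithelia that a carcinoma breaches when it invades. Collagen VI forms beaded filaments beside that sheet, collagen VII anchors skin epithelium to the dermis, collagen XVIII carries the endostatin fragment, and the fibrillar collagens build the fibres of the stroma.

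Short promoter stretches are shown for 4 chains that fell, Lama5, Lamb1, Col4a5 and Col6a1, and for Col7a1, which did not pass the test, so that the DNA before these genes can be read beside their levels. They are RefSeq sequences of build GRCm38.p6, written 5′ to 3′ on the strand of the gene and ending at the base before the gene's start. Capitals mark matches on either strand to 4 motifs. The TATA box was searched as TATAAA, bound by the general factor TBP. The GC box was searched as GGGCGG, the core that Sp1 binds. The CCAAT box was searched by the letters of its name, which NF-Y binds, and the AP-1 element as TGANTCA, which Fos and Jun dimers bind. No run of capitals in the printed stretches is longer than 1 motif. The Lama5 stretch is chr2:180225860-180226109, minus strand; Lamb1 is chr12:31265043-31265233, plus strand; Col4a5 is chrX:141475169-141475384, plus strand. The Col6a1 stretch is chr10:76726169-76726294, minus strand, and Col7a1 is chr9:108953336-108953585, plus strand.
Lama5: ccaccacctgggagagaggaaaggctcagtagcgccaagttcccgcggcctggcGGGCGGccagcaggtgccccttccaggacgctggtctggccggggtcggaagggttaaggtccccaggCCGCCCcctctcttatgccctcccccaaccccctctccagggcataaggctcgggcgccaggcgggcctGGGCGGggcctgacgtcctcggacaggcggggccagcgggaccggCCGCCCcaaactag
Lamb1: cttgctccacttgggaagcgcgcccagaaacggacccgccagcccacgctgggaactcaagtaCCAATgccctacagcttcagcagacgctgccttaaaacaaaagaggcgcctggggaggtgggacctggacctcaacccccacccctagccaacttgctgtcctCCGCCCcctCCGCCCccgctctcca
Col4a5: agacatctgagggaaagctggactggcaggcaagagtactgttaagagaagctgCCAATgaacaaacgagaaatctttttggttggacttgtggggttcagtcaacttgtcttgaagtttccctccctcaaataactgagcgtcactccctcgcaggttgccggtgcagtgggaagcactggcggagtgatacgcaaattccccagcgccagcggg
Col6a1: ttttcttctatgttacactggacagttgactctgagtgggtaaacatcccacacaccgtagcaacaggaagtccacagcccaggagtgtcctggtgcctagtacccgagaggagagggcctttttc
Col7a1: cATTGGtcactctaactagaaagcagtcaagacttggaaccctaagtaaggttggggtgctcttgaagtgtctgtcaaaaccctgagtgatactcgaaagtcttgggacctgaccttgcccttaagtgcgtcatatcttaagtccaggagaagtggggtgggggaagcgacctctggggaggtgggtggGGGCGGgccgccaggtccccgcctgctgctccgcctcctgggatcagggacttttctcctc
The Lama5 stretch held 4 GC boxes, the Lamb1 stretch held 2 GC boxes and 1 CCAAT box, and Col4a5 held 1 CCAAT box. The Col6a1 stretch held none of the 4 motifs. Col7a1, which was not called, held 1 GC box and 1 CCAAT box, so these letters did not separate it from the chains that fell. The stretches stop at the gene's start in GENCODE M21 or RefSeq, whichever is first, and the whole 250 bases before the RefSeq start can hold more: those of Col6a1 held 1 AP-1 element and those of Col4a5 also 1 GC box. The RefSeq table held 44 windows of 40 of the 55 chains, since Col6a2, Col9a1, Col18a1 and Lamb3 had 2 each. In the 250 bases before the start, a GC box stood in 54.5% of these 44 windows and in 32.7% of all 32817 windows. A CCAAT box stood in 31.8% of the chains' windows and 33.8% of all, a TATA box in 11.4% and 12.4%, and an AP-1 element in 2.27% (1 window, that of Col6a1) and 6.75%. The median GC content was 59% for the chains' windows and 52.4% for all. A match is a description of the letters and does not show that a factor binds there.

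Values are FPKM (fragments per kilobase of transcript, scaled to the mapped fragments of the library), so levels can be set side by side between genes. A chain was tested when 3 or more libraries, of either group, held it at 1 FPKM or above. limma was fitted to log2(FPKM + 1) over all 10863 genes that passed this filter, with p-values adjusted over all of them by the Benjamini-Hochberg method and called under 0.05. A log2 fold change on this scale is nanoparticle minus PBS and understates the change of low genes. The filter was passed by 19 chains, and 36 chains stayed below it.

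Most of the collagen and laminin chains that these cells express were lower after the nanoparticles. Of the 19 chains tested, 14 fell, 3 rose, Col9a3 and Col14a1 among them, and 2 did not pass the test (Lamb2 and Col7a1). Over all tested genes 46% fell and 40.5% rose, 86.4% in either direction, so a call in itself was common. The share of all tested genes whose groups did not overlap is not given here. Where a tested chain or a ratio is said not to overlap, this only describes its values. At least 2-fold changes on the log2(FPKM + 1) scale were counted for 9 chains that fell and 3 that rose, against 13.5% and 10.2% of all tested genes. The median log2 fold change was -0.93 over the 19 chains and -0.06 over all tested genes. The direction of 4 chains was fixed by the filter, because Col9a3 and Col14a1 passed it through the nanoparticle libraries alone and Col5a3 and Lama4 through the PBS libraries alone. With a filter on the mean of all 6 libraries, chosen after seeing the data, 17 chains were tested, of which 14 fell and 1 rose. With no filter, 32 of the 55 chains were called higher and 15 lower, against 42% and 26% of all 20124 features above 0.

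**Figure D1:**
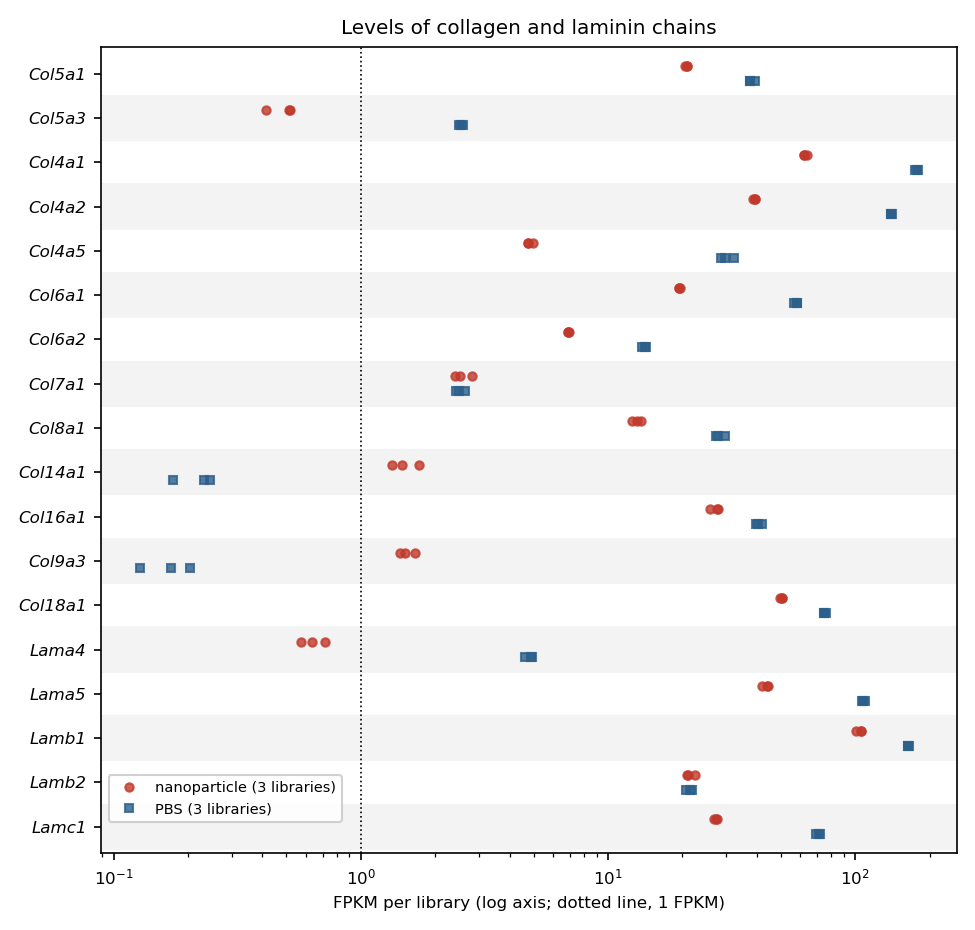
Level of 18 of the tested chains in every library, in FPKM on a log axis; circles are the 3 nanoparticle libraries, squares the 3 PBS libraries, and the dotted line is 1 FPKM. The circles lie left of the squares for 14 chains, right of them for Col9a3 and Col14a1, and among them for Col7a1 and Lamb2.

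The summed level of all 55 chains was 486 ± 4.82 FPKM in nanoparticle cells and 981 ± 8.18 FPKM in PBS cells (mean ± SD, n = 3 each), which is 49.5% of the PBS level. The collagen chains summed to 257 ± 2.34 FPKM in nanoparticle cells and 609 ± 8.41 FPKM in PBS cells. The laminin chains summed to 228 ± 5.14 FPKM in nanoparticle cells and 371 ± 2.12 FPKM in PBS cells. Laminins therefore made up more of the summed chain level after the nanoparticles, 46.3% to 47.6% in the nanoparticle libraries and 37.6% to 38.3% in the PBS libraries. In bulk samples, fewer cells expressing a gene and less RNA per cell cannot be told apart.

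The basement membrane collagen IV chains carried the largest part of the collagen level. Col4a1 encodes the α1 chain, a pair of which winds with 1 α2 chain in the common trimer, and lies at chr8:11198423-11312826 (GRCm38). It stood at 61.8, 61.8 and 63.7 FPKM in the nanoparticle libraries, against 179.6, 175 and 178 FPKM in the PBS libraries. All 3 nanoparticle libraries were far below the lowest PBS library, and Col4a1 fell by 1.49 on the log2 scale (95% interval -1.55 to -1.43; limma, adjusted p = 5.38e-11). Col4a2, the α2 chain, at chr8:11312805-11449287, stood at 39.3, 39.1 and 38.6 FPKM in the nanoparticle libraries, against 139.6, 139 and 141 FPKM in the PBS libraries. It fell by 1.82 (interval -1.87 to -1.76; limma, adjusted p = 1.48e-11), again with no overlap between the groups. The 2 genes are read from opposite strands and overlap by 22 bases at their starts, and the sources used here do not say whether the libraries kept strand, so reads in the overlap cannot be assigned.

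Col4a5, an X-linked chain whose loss in humans causes Alport syndrome, had the lowest log2 fold change of the tested chains on the log2(FPKM + 1) scale; with a pseudocount of 0.1, Lama4 was lower, at -2.73, with Col4a5 at -2.62. It had 4.98, 4.75 and 4.73 FPKM in the nanoparticle libraries, against 32.2, 28.7 and 29.8 FPKM in the PBS libraries. The nanoparticle mean was 16.0% of the PBS mean, and the log2 fold change was -2.42 (interval -2.54 to -2.30; limma, adjusted p = 1.83e-10). Its neighbour Col4a6, which starts 1308 bases away on the opposite strand, did not reach the filter. It had 0.348, 0.365 and 0.316 FPKM in nanoparticle cells and 0.595, 0.705 and 0.579 FPKM in PBS cells. Col4a3 and Col4a4, the other head-to-head pair of the family, stayed at or below 0.379 FPKM in every library. The collagen IV chains together summed to 107 ± 0.65 FPKM in nanoparticle cells and 348 ± 4.30 FPKM in PBS cells.

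Among laminins, the chains of laminin-511, the broad epithelial form built from Lama5, Lamb1 and Lamc1, all fell. Lama5, at chr2:180176373-180225859, is the alpha chain that binds integrin α6 and dystroglycan through its globular end. It had 43.9, 44.5 and 42.1 FPKM in nanoparticle libraries, against 109, 107 and 107 FPKM in PBS libraries. The groups were apart by more than the whole spread within either, and the log2 fold change was -1.29 (interval -1.36 to -1.22; limma, adjusted p = 2.86e-10). Lamc1, the common gamma chain, at chr1:153218922-153332786, had 27.7, 27.4 and 27.0 FPKM in nanoparticle libraries, against 71.8, 71.5 and 69.5 FPKM in PBS libraries. It fell by 1.34 (interval -1.41 to -1.28; limma, adjusted p = 2.02e-10), close to the value of Lama5. Lamb1, the common beta chain, was the most abundant laminin chain in all 6 libraries. It had 106, 105 and 101 FPKM in nanoparticle libraries, against 163, 165 and 163 FPKM in PBS libraries, and its log2 fold change was -0.65 (interval -0.71 to -0.59; limma, adjusted p = 9.91e-09).

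Lamb2, the beta chain of laminins at the neuromuscular junction and in the glomerulus, had 20.9, 22.4 and 21.1 FPKM in nanoparticle libraries, against 20.7, 21.9 and 21.4 FPKM in PBS libraries. The groups overlapped, and the log2 fold change was 0.01 (interval -0.09 to 0.10; limma, adjusted p = 0.869). Rescaled so that every library sums to the same total (the TPM scale), which shifts the median of all tested genes by -0.15, Lamb2 was called at -0.14 (limma, adjusted p = 0.0139). Lama4, an alpha chain of vessels, muscle and fat, had 0.571, 0.717 and 0.633 FPKM in nanoparticle libraries, against 4.91, 4.60 and 4.86 FPKM in PBS libraries. Its log2 fold change was -1.82 (limma, adjusted p = 5.29e-09), in the direction that the filter fixed. Lamb3, the β3 chain, had 0.901, 0.955 and 0.696 FPKM in nanoparticle cells and 0.288, 0.338 and 0.403 FPKM in PBS cells, which did not overlap, but it did not pass the filter and was not tested. Lama1, Lama2, Lama3 and Lamc3 also did not pass it and stayed at or below 0.439 FPKM in every library.

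The collagen VI chains fell unequally. Col6a1, the α1(VI) chain, had 19.5, 19.3 and 19.3 FPKM in nanoparticle libraries, against 58.3, 56.3 and 58.2 FPKM in PBS libraries, a log2 fold change of -1.52 (interval -1.59 to -1.45; limma, adjusted p = 1.30e-10). Col6a2, the α2(VI) chain, had 6.87, 6.96 and 6.86 FPKM in nanoparticle libraries, against 14.1, 13.7 and 14.3 FPKM in PBS libraries, a log2 fold change of -0.93 (interval -1.03 to -0.83; limma, adjusted p = 2.26e-08). Neither gene's groups overlapped. Collagen VI is assembled from an α1, an α2 and a further chain, of which Col6a3 is the usual one. Col6a3, Col6a4, Col6a5 and Col6a6 did not pass the filter and stayed at or below 0.521 FPKM in every library.

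Of the 11 fibrillar chains, 2 were tested and both fell. Col5a1, which helps to start thin collagen I fibrils, had 20.5, 20.9 and 20.96 FPKM in nanoparticle libraries, against 39.3, 37.5 and 37.5 FPKM in PBS libraries (log2 fold change -0.84; limma, adjusted p = 9.11e-09). Col5a3, the α3(V) chain, had 0.512, 0.415 and 0.518 FPKM in nanoparticle libraries, against 2.48, 2.55 and 2.59 FPKM in PBS libraries (log2 fold change -1.26; limma, adjusted p = 7.96e-08). The direction of Col5a3 was fixed by the filter. Col1a1, Col1a2 and Col3a1, the main fibre collagens of stromal fibroblasts, were at or below 0.525 FPKM in every library.

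Chains of the other classes split. Col18a1 had 49.5, 50.7 and 50.4 FPKM in nanoparticle libraries, against 76.2, 74.98 and 74.9 FPKM in PBS libraries, a fall of 0.58 on the log2 scale (limma, adjusted p = 2.10e-08). Col16a1, a fibril-associated collagen, had 25.9, 28.0 and 27.7 FPKM in nanoparticle libraries, against 40.5, 39.8 and 41.9 FPKM in PBS libraries, a fall of 0.57 (limma, adjusted p = 4.37e-07). Col8a1, a short-chain network collagen of vessel walls and the cornea, had 13.1, 13.6 and 12.5 FPKM in nanoparticle libraries, against 29.7, 27.5 and 27.8 FPKM in PBS libraries, a fall of 1.06 (limma, adjusted p = 1.42e-08). None of these 3 chains had overlapping groups.

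Col9a3 and Col14a1, both fibril-associated collagens, rose at very low levels. Col9a3 had 1.44, 1.66 and 1.51 FPKM in nanoparticle libraries, against 0.205, 0.171 and 0.128 FPKM in PBS libraries (log2 fold change 1.12; limma, adjusted p = 3.72e-07). Col14a1 had 1.34, 1.47 and 1.72 FPKM in nanoparticle libraries, against 0.175, 0.232 and 0.246 FPKM in PBS libraries (log2 fold change 1.04; limma, adjusted p = 1.24e-06). The filter fixed both directions, and without any 1 nanoparticle library both failed the filter, which left 1 chain called higher. Col7a1 had 2.81, 2.40 and 2.52 FPKM in nanoparticle libraries, against 2.51, 2.43 and 2.64 FPKM in PBS libraries. Its groups overlapped, and the log2 fold change was 0.02 (interval -0.14 to 0.17; limma, adjusted p = 0.809), and -0.11 without a call on the TPM scale.

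**Figure D2:**
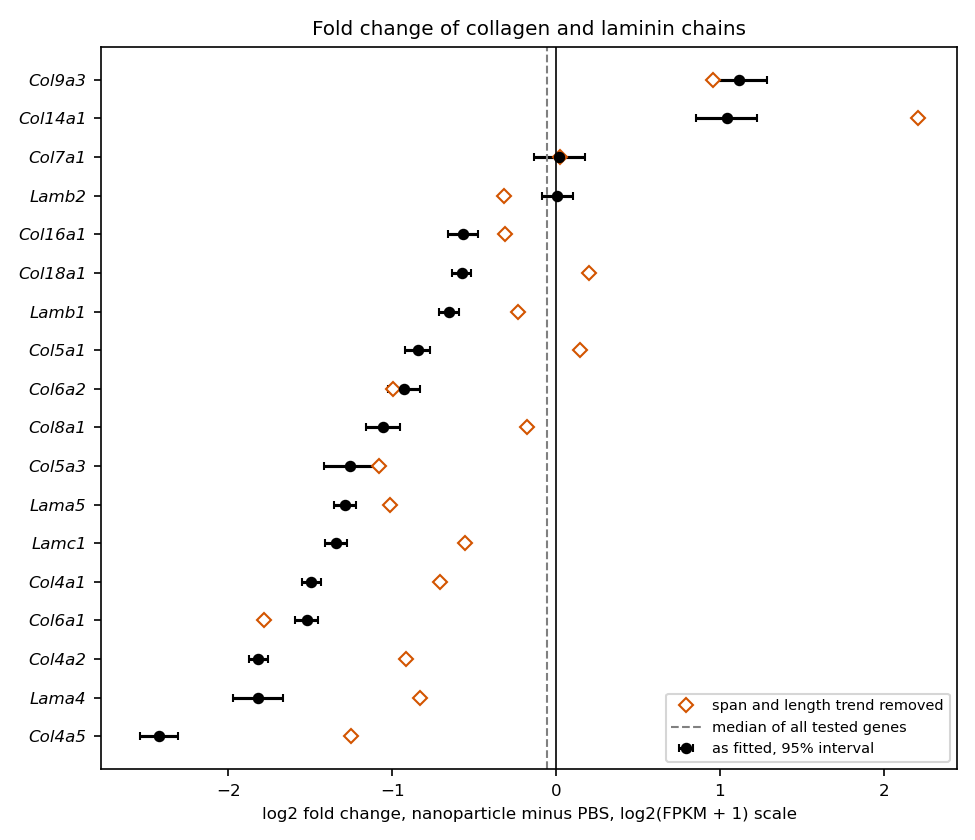
Log2 fold change, nanoparticle minus PBS, on the log2(FPKM + 1) scale for 18 of the tested chains; black circles carry 95% intervals from limma, open diamonds are the values with the trend on genomic span and exonic length removed, and the dashed line is the median of all tested genes, -0.06. Values run from -2.42 for Col4a5 to 1.12 for Col9a3, and the intervals of Lamb2 and Col7a1 include 0; on the TPM scale Lamb2 moved to -0.14 and Col7a1 to -0.11.

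Because chains of the same trimer did not change by equal amounts, ratios of chains were set side by side, 4 between partners in a trimer and 1 between the alternative beta chains Lamb2 and Lamb1. The Col4a1 to Col4a2 ratio was 1.60 ± 0.043 in nanoparticle cells and 1.27 ± 0.016 in PBS cells (SD, n = 3 each). The Col6a1 to Col6a2 ratio was 2.81 ± 0.029 in nanoparticle cells and 4.10 ± 0.036 in PBS cells, and the Lamb1 to Lama5 ratio was 2.39 ± 0.026 in nanoparticle cells and 1.52 ± 0.023 in PBS cells. Lamc1 to Lama5 moved least, at 0.629 ± 0.013 in nanoparticle cells and 0.659 ± 0.0077 in PBS cells. Lamb2 to Lamb1 was 0.207 ± 0.0084 in nanoparticle cells and 0.130 ± 0.0032 in PBS cells. None of these 5 ratios overlapped between groups, and each gave p = 0.1 in a two-sided exact permutation test, the smallest that 3 against 3 allows (0.1 after Benjamini-Hochberg adjustment over the 5).

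Ranks by level are given here for Lamb1, Col4a1, Lama5, Col18a1 and Col4a2, not for every chain. Lamb1 ranked 1st and Col4a1 2nd in each nanoparticle library, and Col4a1 ranked 1st and Lamb1 2nd in each PBS library. Lama5 ranked 4th in all 6 libraries. Col18a1 ranked 3rd in each nanoparticle library and 5th in each PBS library, while Col4a2 ranked 5th in each nanoparticle library and 3rd in each PBS library.

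The 36 chains that did not pass the filter were all under 1 FPKM, the highest single value being 0.987 FPKM. Their median level was 0.183 FPKM in nanoparticle cells and 0.0159 FPKM in PBS cells. In 33 of the 36 every nanoparticle library was above every PBS library, in 1 (Col4a6) every nanoparticle library was below, and in 2 (Col11a1 and Col19a1, named after their values were seen) the groups overlapped. Among all 9261 features above 0 that did not pass, 48.9% had every nanoparticle library above every PBS library and 3.74% had every one below. The median level of these features was 0.0829 FPKM in nanoparticle cells and 0 FPKM in PBS cells. They thus lay lower than the chains, and the 48.9% is not a share at like level. All 9 chains listed at 0 in every PBS library had some signal in nanoparticle cells, as did 5347 of all 7328 gene features at 0 there, which is 73%. Col11a2, a minor fibril chain of cartilage, had 0.749, 0.987 and 0.779 FPKM in nanoparticle cells and 0.0885, 0.0981 and 0.168 FPKM in PBS cells. Col17a1, the transmembrane collagen of hemidesmosomes, had 0.405, 0.600 and 0.605 FPKM in nanoparticle cells and 0.0891, 0.140 and 0.162 FPKM in PBS cells. The number of genes above 0 was 18319 to 18509 in nanoparticle libraries and 13544 to 13808 in PBS libraries, whereas genes at 1 FPKM or more numbered 10596 to 10622 in nanoparticle libraries and 10618 to 10631 in PBS libraries. The part of this difference in the levels of the low chains was not tested. Together the 36 chains summed to 8.93 to 9.50 FPKM in nanoparticle libraries and 2.05 to 2.52 FPKM in PBS libraries, a small part of the total.

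**Figure D3:**
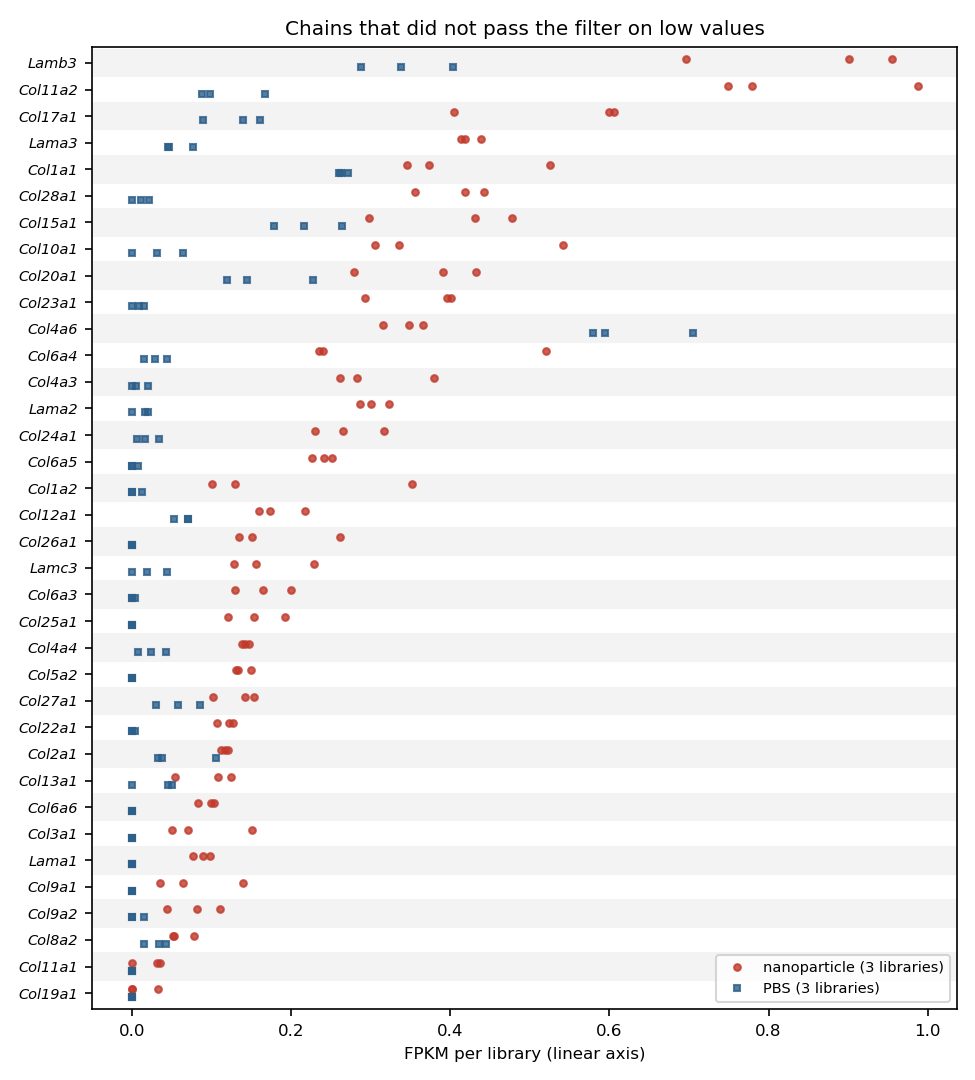
Level of each chain that did not pass the filter in every library, in FPKM on a linear axis; circles are the 3 nanoparticle libraries and squares the 3 PBS libraries, and all values lie under 1 FPKM. In 33 of the 36 chains every nanoparticle library was above every PBS library, with Col4a6 the only chain the other way round.

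Most chain genes are long, and fold change ran with genomic span, the distance from gene start to gene end in GENCODE M21. Over 10836 tested genes the Spearman correlation of span with log2 fold change was -0.49, a description across genes that share libraries. It was -0.35 over the 19 chains. The median span was 64.4 kb for the tested chains and 23.2 kb for all tested genes. Among the 2709 tested genes of 51.7 kb or more, 81.1% fell, 10.4% rose and the median log2 fold change was -0.76. Of the 11 chains of that length 9 fell and 2 rose, close to the share of the other genes there. Col14a1, of 213 kb, was among the few long genes that rose, in the direction that the filter fixed. The filter also fixed the direction of Lama4, among the chains of that length that fell. Col6a1 spans only 17.4 kb, and of the tested genes between 10.2 and 23.2 kb 30.1% fell.

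With the trend of fold change on span and exonic length removed, 13 chains were called lower and 5 higher, and 1 was not called. The removal left in the mean fold change of all these genes, so a value is not the distance from genes of like length. Under that setting 46.5% of all 10836 genes were lower and 37.5% higher. There, Col6a1 stood at -1.78, Col4a5 at -1.25, Lama5 at -1.01 and Col5a3, whose direction the filter fixed, at -1.08. Col4a2 stood at -0.92, Col4a1 at -0.71 and Lamc1 at -0.56, each a smaller fall than its plain fold change. Col8a1 stood at -0.18 and Lamb1 at -0.23. Col5a1 and Col18a1 turned from lower to higher, at 0.15 and 0.20, and Lamb2 was called lower, at -0.32. The falls of Col5a1 and Col18a1 were thus not kept in this setting. The part of gene length in the fold changes of the chains was not tested further.

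Genes that make, trim and receive these chains were described from 4 lists, whose counts stand against 46% lower and 40.5% higher over all tested genes. With the span and length trend removed, 17 synthesis genes were lower and 4 higher, and 6 processing genes were lower and 3 higher. There, 3 partners were lower and 6 higher, and 9 genes of the receptor list were lower and 3 higher. Under that setting 46.5% of all genes were lower and 37.5% higher. The part of gene length in the fold changes of the genes of these lists was not tested further. Of the 26 genes of collagen synthesis and folding 22 were tested, of which 17 fell, 4 rose and 1 was not called, with a median log2 fold change of -0.35. Serpinh1, the collagen chaperone HSP47, had 113 ± 1.38 FPKM in nanoparticle cells and 177 ± 4.05 FPKM in PBS cells (log2 fold change -0.65; limma, adjusted p = 9.72e-09). Sec24d, a coat protein of the vesicles that carry procollagen, had 7.12 ± 0.39 FPKM in nanoparticle cells and 20.5 ± 0.28 FPKM in PBS cells (-1.41), and Mia2, an export receptor at the same sites, fell by 1.00. P4ha1, the catalytic subunit of prolyl 4-hydroxylase, fell by 0.32, while P4hb, its other subunit and a disulfide isomerase in its own right, rose to 435 ± 9.85 FPKM in nanoparticle cells, against 277 ± 2.11 FPKM in PBS cells (0.65). P3h2, a prolyl 3-hydroxylase that acts on collagen IV, rose by 1.08. Serpinh1, Sec24d and Mia2 thus fell while both P4hb and P3h2 rose. These genes span 7.86, 98.2, 95.8, 13.0 and 146 kb in that order.

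Of the 18 genes of collagen processing and crosslinking 9 were tested, of which 5 fell, 3 rose and 1 was not called (median -0.42), close to the shares of all tested genes, 46% lower and 40.5% higher. Pxdn, the peroxidasin that crosslinks collagen IV, had 5.80, 6.03 and 5.71 FPKM in nanoparticle libraries, against 33.9, 34.5 and 34.3 FPKM in PBS libraries. The groups were far apart, and Pxdn fell by 2.36 on the log2 scale (limma, adjusted p = 4.55e-11), about as much as Col4a5. Tgm2, a transglutaminase, fell by 1.03 and Adamts14, a procollagen N-proteinase, by 1.47. Pcolce, which enhances the removal of the C-terminal propeptide, had 474 ± 13.5 FPKM in nanoparticle cells and 225 ± 3.41 FPKM in PBS cells (1.07; limma, adjusted p = 5.68e-10). Lox, the lysyl oxidase, was at or below 0.0730 FPKM in every library and was not tested.

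Of the 26 other basement membrane and matrix partners 9 were tested, of which 5 rose, 3 fell and 1 was not called (median 0.28), against 40.5% higher and 46% lower over all tested genes. Hspg2, the proteoglycan perlecan, fell with the collagen IV and laminin-511 chains, with 15.5 ± 0.23 FPKM in nanoparticle cells and 30.9 ± 0.29 FPKM in PBS cells (-0.95; limma, adjusted p = 3.78e-09). Tinagl1, a secreted protein that binds laminin and integrins, had 239 ± 4.20 FPKM in nanoparticle cells and 101 ± 2.09 FPKM in PBS cells (1.23; limma, adjusted p = 1.97e-10). Thbs1, thrombospondin 1, rose by 1.22, and Sparc, a collagen-binding glycoprotein, rose by 0.41. Fn1, fibronectin, had 146 ± 3.53 FPKM in nanoparticle cells and 141 ± 3.00 FPKM in PBS cells (0.05; limma, adjusted p = 0.139). The call of Fn1 depended on the setting: it was lower on the TPM scale (-0.11) and higher with the span and length trend removed. Nid1, which links laminin to collagen IV, did not pass the filter, with 0.981 FPKM in nanoparticle cells and 0.535 FPKM in PBS cells.

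Of the 20 genes listed as collagen and laminin receptors 14 were tested, of which 10 fell, 3 rose and 1 was not called (median -0.60). Over all tested genes 46% were lower and 40.5% higher. The 3 genes of this list that rose were Plec (1.27), which is not itself a receptor, Itga7 (1.16) and Itga6. Itga1, a collagen-binding integrin that prefers collagen IV, had 3.46, 3.16 and 3.40 FPKM in nanoparticle libraries, against 28.7, 29.0 and 28.3 FPKM in PBS libraries. It fell by 2.77 (limma, adjusted p = 4.46e-11). Itgb4, the hemidesmosome integrin subunit that binds laminins, had 17.4, 18.5 and 16.4 FPKM in nanoparticle libraries, against 90.7, 83.6 and 86.5 FPKM in PBS libraries (-2.25; limma, adjusted p = 1.61e-10). Itga6, the partner of Itgb4, had 32.5 ± 0.39 FPKM in nanoparticle cells and 30.1 ± 0.29 FPKM in PBS cells (0.11; limma, adjusted p = 0.00851), a difference that was not called on the TPM scale (-0.04). Ddr2 and Ddr1, receptor tyrosine kinases for collagen, fell by 1.96 and 0.87, Dag1, dystroglycan, by 1.30, and Itgb1, the shared β1 integrin, by 0.68.

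**Figure D4:**
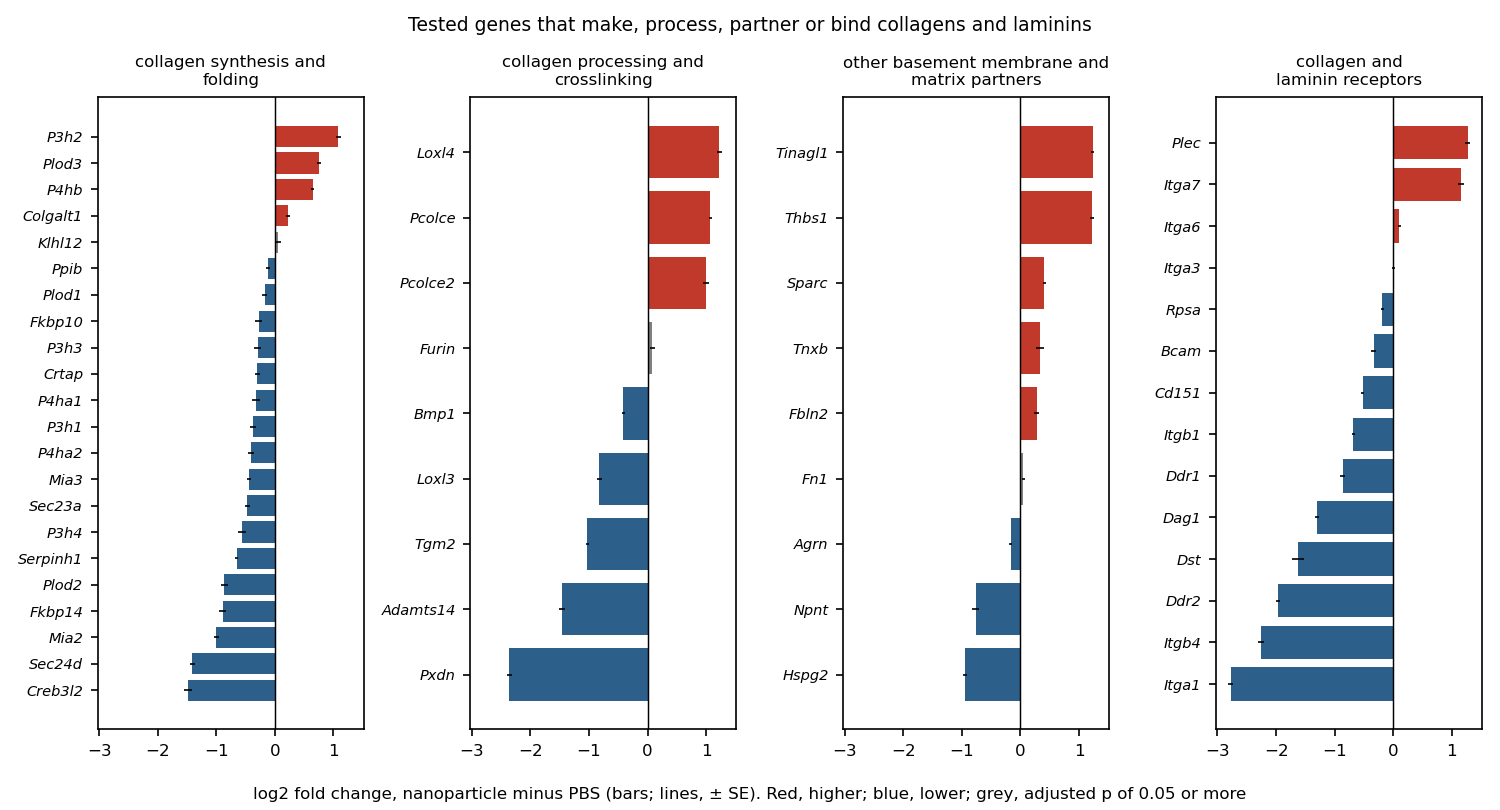
Log2 fold change, nanoparticle minus PBS, of every tested gene of the 4 lists, on the log2(FPKM + 1) scale; bars are fold changes, lines are ± SE from limma, and red, blue and grey mark genes that rose, fell or were not called. The longest bars below 0 are those of Itga1 (-2.77), Pxdn (-2.36) and Itgb4 (-2.25). The longest bar above 0 is that of Plec (1.27), with Tinagl1 at 1.23. Fn1 and Itga6, at 0.05 and 0.11, turned below 0 on the TPM scale.

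The labelled cell type was set against marker lists, whose counts stand against 46% lower and 40.5% higher over all tested genes. Of 11 epithelial and mammary carcinoma markers 8 were tested, of which 6 rose, 1 fell and 1 was not called, and their sum was 1178 to 1223 FPKM in nanoparticle libraries and 832 to 846 FPKM in PBS libraries, mostly keratins, while Epcam averaged 0.639 FPKM in nanoparticle cells and 0.551 FPKM in PBS cells. Of 12 fibroblast markers 2, Pdgfra and Pdgfrb, were tested and both fell, the sum was 8.69 to 10.7 FPKM in nanoparticle libraries and 33.8 to 34.1 FPKM in PBS libraries, and 6 of the 12, Dcn, Lum and Postn among them, were at 0 in every PBS library. In nanoparticle cells Dcn, Lum and Postn averaged 0.168, 0.0382 and 0.138 FPKM. Of the untested fibroblast markers, all but Pi16 had a higher mean in nanoparticle cells than in PBS cells. The 8 endothelial markers summed to 3.39 to 3.50 FPKM in nanoparticle libraries and 8.78 to 8.93 FPKM in PBS libraries, with 3 of them, Cldn5, Emcn and Kdr, at 0 in every PBS library and Cdh5 making up most of the sum in PBS cells. Cdh5 fell, and every other endothelial marker had a higher mean in nanoparticle cells. The 10 macrophage and myeloid markers summed to 9.66 to 13.4 FPKM in nanoparticle libraries and 11.8 to 13.3 FPKM in PBS libraries. Adgre1, Fcgr1 and Ptprc were at 0 in every PBS library and averaged 0.0633, 0.286 and 0.527 FPKM in nanoparticle cells. Of all gene features at 0 in every PBS library, 73% had some signal in nanoparticle cells. All 10 myeloid markers but Cd14 and Cd163 had a higher mean in nanoparticle cells. Of the 10 myeloid markers, 2 were tested. Cd14, most of the sum, fell, with 7.13 FPKM in nanoparticle cells and 11.9 FPKM in PBS cells. Csf1r rose, with 1.45 FPKM in nanoparticle cells and 0.0416 FPKM in PBS cells, in the direction that the filter fixed. The part of these marker differences in the levels of the chains was not tested. Marker genes here were named after their values were seen.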

How the data were processed

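The deposited table holds FPKM values per gene, a unit inferred from the values because the table's header does not name it. Per the submitters' processing notes, the authors used STAR and featureCounts with GRCm38 and mm10; versions, roles and the program behind the FPKM are not named there. No step of 1 read could be recovered from the low values, so the depth is not known and counting intervals are left out. Of 22806 features, 701 without a gene identifier (0.631% to 0.67% of summed FPKM) were left out.

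Values were transformed to log2(FPKM + 1) and fitted with limma 3.58.1 (R 4.3.3; trend and robust settings), nanoparticle minus PBS, with two-sided p-values; the design had put a count test first, which FPKM do not allow. The members and lists were chosen with earlier results of these data known. Chains that passed the filter are named, except 1 that is not reported here, as are untested chains averaging 0.5 FPKM in a group; each pathway list gives its 4 genes with the smallest adjusted p and 12 genes named in the design. Other genes named among the untested chains, and Plec and Itga7 in the receptor list, were chosen after their values were seen. The fit was tested on simulated data. Ratios and sums were computed in Python 3.11.15 with pandas 2.3.3 and scipy 1.17.1. Positions and spans are from GENCODE M21 (GRCm38), and promoters from RefSeq GRCm38.p6. Alternatives were a pseudocount of 0.1, no filter, a filter at 5 FPKM, a threshold of 0.01, TPM and median-of-ratios scaling, removal of the span and length trend, a replicate block and each library left out.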

Additional observations from a re-analysis of the deposited data

How the results depend on the processing

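The number of chains called lower, 14, was 12 to 15 under every alternative run, and 12 without any 1 PBS library, since Col5a3 and Lama4 then failed the filter. The number called higher, 3, was 1 with a filter at 5 FPKM or on the mean of 6 libraries, 5 with the span and length trend removed, and 32 of 55 with no filter. It ranged from 1 to 3 with each library left out, and was 1 without any 1 nanoparticle library. With no filter, 8445 of all genes were called higher, as were 7 synthesis, 9 processing, 20 partner and 6 receptor genes, where more genes were tested. Trend removal turned Col5a1 (0.15), Col18a1 (0.20) and Lamb2 (-0.32), left P4ha1 uncalled (-0.11) and called Fn1 (0.52). The TPM scale turned Lamb2 (-0.14), Fn1 (-0.11) and Itga6 (-0.045), and Col7a1 (-0.11) without a call. Of 596 values of single genes under alternatives, 588 kept their call; in 5 of these, 3 of Col7a1 and 2 of Lamb2, the sign changed without a call. Samples of the same replicate number showed no shared deviation (correlations -0.01, -0.04 and 0.04), which cannot show whether they were paired. With the replicate number as a block 3 chains were higher and 14 lower. Levels near 0 are limited by a depth that is unknown.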
